A study of Gallus gallus with 6 samples.

Results

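The enzymes of glycolysis and of glycogen metabolism were examined in pectoral muscle of broiler chickens, through a list of 42 gene names: 20 glycolytic names, 18 glycogen names, the glucose transporters SLC2A1 and SLC2A3, and the fructose bisphosphatases FBP1 and FBP2. A gene was taken when its name in the deposited expression table equalled a listed name. Of the 42 names, 35 were found among the 20943 genes of the table, and 33 of these averaged at least 1 FPKM over the 6 libraries and were tested, among 11320 such genes in all. FPKM counts fragments per kilobase of transcript in proportion to the reads of the library, so levels can be compared between genes. The tested genes were 15 glycolytic genes, 14 glycogen genes, both transporters and both fructose bisphosphatases. The names ALDOA, PGAM2, ENO3, PKLR, PYGM, GYS2 and PHKG2 were not found. ENO2, at a mean of 0.692 FPKM, and GYG2, at 0.397 FPKM, were found and were under the minimum.

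All 6 libraries were made from poly(A) RNA of pectoralis major, the large flight muscle of the breast, of female broilers at 35 days of age. The control group received the basal diet with 0 IU/kg of added vitamin E and the other group the same diet with 100 IU/kg, in the form DL-α-tocopheryl acetate, from which the antioxidant α-tocopherol is released. Each group had 3 tissue samples. The labels do not say whether each came from its own bird, and a p-value here covers only the spread between the samples, which may be technical. The study was about fat deposition within the muscle, per its title, which names no question about carbohydrate metabolism.

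Glycolysis splits glucose to pyruvate in the cytosol and yields ATP without oxygen, and lactate dehydrogenase then restores the NAD that the pathway uses. Glycogen is the branched store of glucose from which a contracting fibre draws its fuel. Glycogen phosphorylase frees glucose units from it, and glycogen synthase, glycogenin and the branching enzyme build it. The breast muscle of the chicken is almost wholly fast glycolytic fibre, a type known for high amounts of these enzymes. Of 16 fast fibre markers 15 were found. They summed to 82083, 92777 and 81233 FPKM in controls and 74524, 77806 and 81539 FPKM with vitamin E. Vitamin E replicates 1 and 2 were below every control, while replicate 3 was not. Slow fibre markers were measured too, with 10 of 11 found. They summed to between 7710 and 11707 FPKM in controls and between 10702 and 11994 FPKM with vitamin E. The part of fibre type in the differences reported here was not tested.

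The read totals behind the FPKM values were recovered from the steps of these values. They were 25477341, 17203041 and 16239948 in the control libraries and 14161399, 14838400 and 15288812 in the vitamin E libraries, most in control replicate 1. By these totals every control held more reads than every vitamin E library, and the part of depth in the differences was not tested. The first principal component of all tested genes held 38.4% of the variance. On it the controls were at -34.4, 5.87 and -14.2 and the vitamin E libraries at 16.5, 17.4 and 8.75. Control replicate 1 stood farthest out, and every vitamin E library lay above every control. For many of the listed genes, the difference without control replicate 1 is given as well. Among markers of other cell types, the 10 fibroblast genes summed to between 1708 and 2133 FPKM in controls and between 2597 and 3670 FPKM with vitamin E. The 8 adipocyte genes found of 9 summed to between 148 and 228 FPKM in controls and between 252 and 384 FPKM with vitamin E. The 6 erythroid genes found of 11 summed to between 8.49 and 19.9 FPKM and between 22.4 and 28.5 FPKM. None of the genes found in these 3 lists was at 0 in every library. The summed levels of these 3 lists did not overlap between the diets. Single genes bore this out unevenly. In the limma test described below, 9 of 10 tested fibroblast genes were higher with vitamin E at an unadjusted p under 0.05. So were 1 of 6 tested adipocyte genes and 1 of 2 tested erythroid genes, against 5.97% of all tested genes. Only 2 of the erythroid genes averaged at least 1 FPKM. Sums overlapped for endothelial markers (171 to 239 FPKM in controls, 206 to 262 with vitamin E) and smooth muscle and pericyte markers (160 to 298, 144 to 228). They also overlapped for macrophage and leukocyte markers (519 to 990, 800 to 978) and nerve and Schwann cell markers (30.2 to 51.5, 29.6 to 44.1). The part of these cell types in the differences reported here was not tested. In such bulk samples, a change in the number of cells of a type and a change in RNA per cell cannot be told apart.

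Transcripts of these enzymes made up a large part of the muscle transcriptome in both groups. The 35 genes together held 16.0%, 19.9% and 19.7% of summed FPKM in control replicates 1, 2 and 3, and 20.2%, 20.4% and 19.9% in vitamin E replicates 1, 2 and 3. Control replicate 1 was low and the other 5 libraries lay close together, so the groups, at 18.5 ± 2.20% and 20.2 ± 0.283% (SD, n = 3), overlapped. The glycolytic genes held between 15.1% and 19.5% and the glycogen genes between 0.754% and 0.905%.

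**Figure D1:**
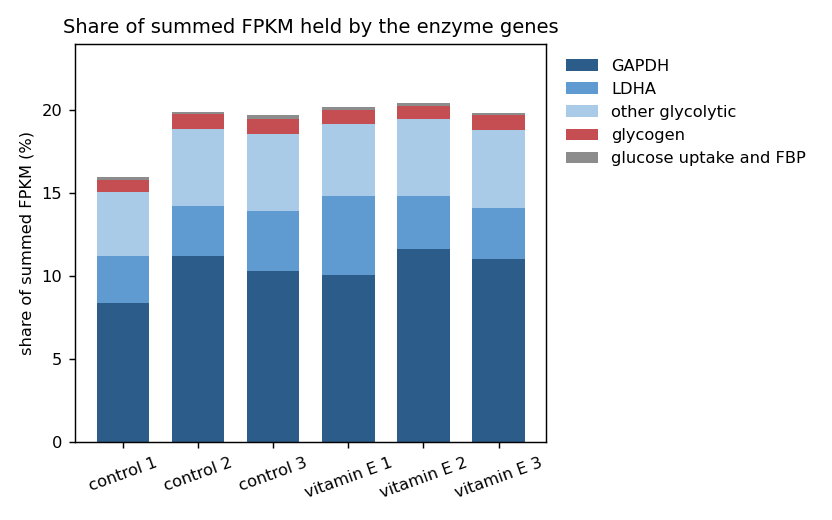
Share of summed FPKM (percent, vertical axis) held by GAPDH, LDHA, the other glycolytic genes, the glycogen genes, and the glucose transporters with the fructose bisphosphatases (FBP), stacked for each of the 6 libraries. The total is 16.0% in control replicate 1 and between 19.7% and 20.4% in the other 5 libraries.

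GAPDH, which oxidises glyceraldehyde 3-phosphate and makes NADH, had the highest mean of all genes in the table, on chromosome 1 at positions 76952888 to 76956805. It alone held 8.40%, 11.2% and 10.3% of summed FPKM in the controls and 10.1%, 11.6% and 11.04% with vitamin E. LDHA, the muscle form of lactate dehydrogenase, ranked 3 by mean level, and PKM, the muscle pyruvate kinase, ranked 10. Of the 20 genes with the highest means, 7 were listed glycolytic or glycogen genes.

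**Figure D2:**
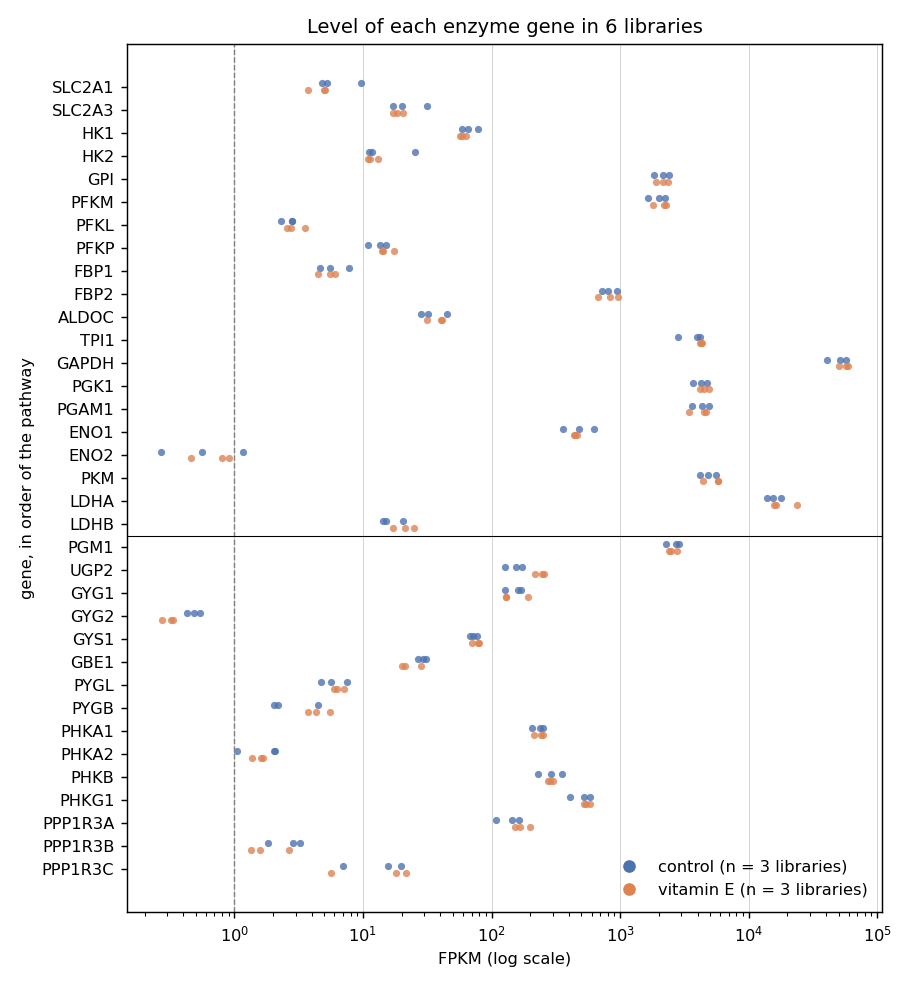
Level of each of the 35 genes in FPKM (horizontal axis, log scale), with glycolytic, transporter and fructose bisphosphatase genes above the line and glycogen genes below it. Each point is 1 library, with controls in blue and vitamin E in orange, and the dashed line marks the minimum mean of 1 FPKM. Levels run from 0.397 FPKM for GYG2 to 52525 FPKM for GAPDH as means, and the points of the groups are mixed for most genes.

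Most steps of the pathway were carried by a single isozyme gene. PFKM, the muscle phosphofructokinase that catalyses the committed step, held 99.2% of the summed mean FPKM of the 3 phosphofructokinase genes. LDHA held 99.9% against LDHB, the form typical of heart. Among the hexokinases, which trap glucose as glucose 6-phosphate, HK1 held 82.1% and HK2 17.9%. FBP2, the muscle fructose bisphosphatase, held 99.3% against FBP1, the liver form. PHKA1, the muscle α subunit of phosphorylase kinase, held 99.3% against PHKA2, and GYG1, the glycogenin that primes new glycogen, held 99.7% against GYG2.

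The libraries of the groups overlapped in each of these isozyme shares. HK2 stood out in 1 library, with 30.2% of hexokinase FPKM in control replicate 1 and between 13.0% and 18.5% in the other 5. PYGB, the brain form of glycogen phosphorylase, held 31.8 ± 5.36% of the FPKM that it shared with PYGL, the liver form, in controls (SD, n = 3). With vitamin E it held 41.2 ± 3.28%. Its shares in single libraries were 26.4%, 37.2% and 31.7% in controls and 37.5%, 43.9% and 42.2% with vitamin E. The vitamin E values all lay above the controls, by a narrow margin over control replicate 2. This share leaves out the muscle form, PYGM, whose name was not found.

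Some rows of the table carried the description of a listed enzyme in the deposited annotation without its gene name. They matched 3 of the names not found (ALDOA, ENO3 and PYGM) or were further rows of GYS1, SLC2A1, SLC2A3, HK2 and LDHB. These rows were picked after the table was seen. The 2 rows described as hexokinase-2 and the 1 described as lactate dehydrogenase B averaged under 1 FPKM and were left out. In all 11 such rows averaged at least 1 FPKM, and each lay on an unplaced sequence record, with gene models that may be partial. A row described as beta-enolase, the muscle enolase, averaged 8460 FPKM and held 94.8% of enolase FPKM, where ENO1 held 5.23%. One of the 2 rows described as aldolase A, the muscle aldolase, averaged 4851 FPKM, against 36.5 FPKM for ALDOC. The 4 rows described as muscle glycogen phosphorylase averaged between 788 and 2519 FPKM, and their mean was 99.5% of the phosphorylase level. With that mean included, PYGB held 0.140%, 0.226% and 0.123% in controls and 0.273%, 0.270% and 0.167% with vitamin E. On this wider measure the groups overlapped. With all 11 rows added, the share of summed FPKM was between 19.8% in control replicate 1 and 25.2% in vitamin E replicate 2. Where rows are parts of 1 gene, this sum counts that gene more than once. None of the 11 rows was at an unadjusted p under 0.05 in limma, and their lowest adjusted p was 0.669. Limma is a linear model, here fitted to log2(FPKM + 1), that draws the variance of each gene towards a trend with level.

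The comparison of the diets found no called difference in any of these genes. Of the 33 genes tested with limma, 0 passed an adjusted p of 0.05 (Benjamini-Hochberg over all 11320 genes), where the same count over all genes was also 0 (0%) in each direction. At an unadjusted p under 0.05, 1 of the 33 was higher with vitamin E (3.03%) and 0 were lower, against 5.97% of all tested genes higher and 3.14% lower. Groups did not overlap in 2 of the 33 genes, both higher with vitamin E (6.06%), against 8.86% of all tested genes higher and 5.72% lower. The listed genes were thus not above the background of the table in any of these counts. With a minimum mean of 5 FPKM, and with voom on whole reads recovered from the FPKM values, 2 genes each were called over the whole table, and none of these were among the listed genes.

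**Figure D3:**
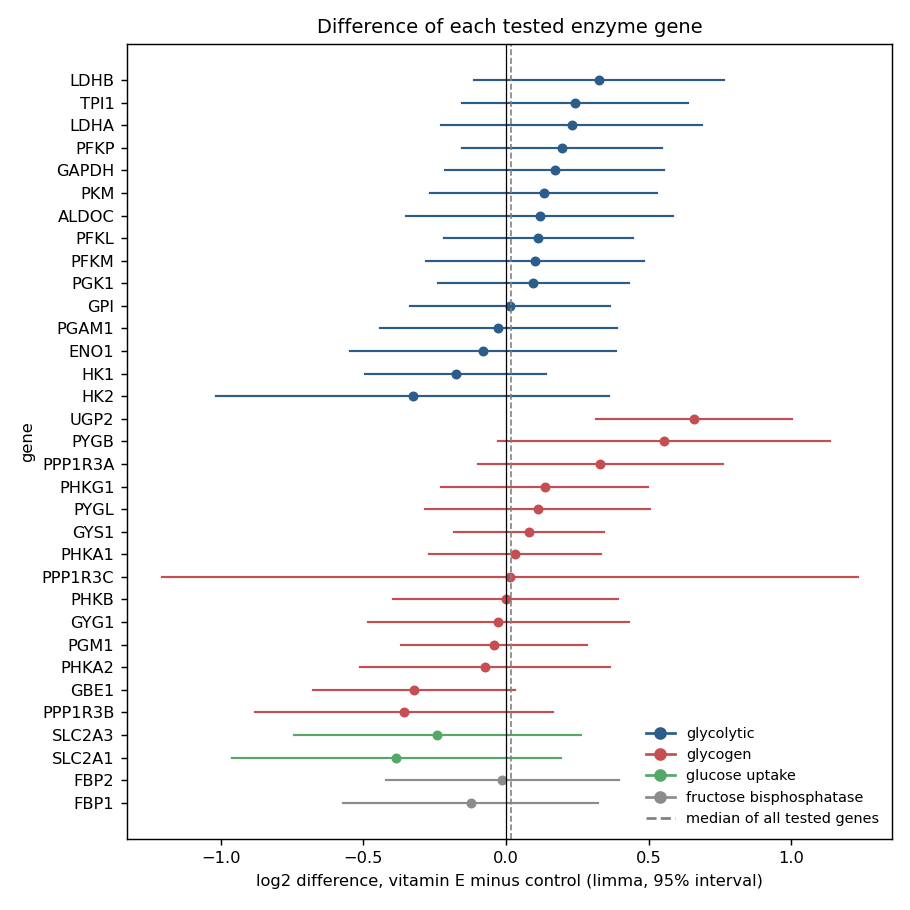
Log2 difference of each tested gene, vitamin E minus control, on the log2(FPKM + 1) scale (horizontal axis), with its 95% interval from limma. Colours mark the classes and the dashed line the median of all tested genes, 0.019. The interval of UGP2 lies wholly above 0, and the other 32 intervals include 0.

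The gene of smallest p was UGP2, whose enzyme joins glucose 1-phosphate to UTP and so makes UDP-glucose, the donor from which glycogen is built. It lies on chromosome 3 at positions 9554497 to 9577977 on the plus strand. UGP2 was at 127.6, 171.7 and 156.4 FPKM in control replicates 1, 2 and 3 and at 254.6, 246.3 and 216.7 FPKM in vitamin E replicates 1, 2 and 3. Every library with vitamin E exceeded every control, and the gap between the groups was about as wide as the range of the controls. The means were 152 ± 22.4 and 239 ± 19.9 FPKM (SD, n = 3), a log2 difference of 0.66 ± 0.15 (SE; 95% interval 0.32 to 1.00). The unadjusted p in limma was 0.00253 and the adjusted p 0.300, so the difference was not called. Over the 21 other settings the log2 difference of UGP2 ranged from 0.54 to 0.75, and the adjusted p from limma ranged from 0.158 to 0.760. The lowest difference was the one without control replicate 1.

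Among the other genes of glycogen synthesis, none was at an unadjusted p under 0.05. PGM1, phosphoglucomutase, links glucose 6-phosphate with glucose 1-phosphate and was the highest glycogen gene, at 2630 ± 311 and 2548 ± 211 FPKM (SD, n = 3). GYS1, the muscle glycogen synthase, was at 68.1, 71.2 and 76.9 FPKM in controls and 71.0, 78.5 and 79.3 FPKM with vitamin E. These libraries differed little and the groups overlapped, with a log2 difference of 0.080 ± 0.11 (SE; 95% interval -0.18 to 0.34; adjusted p = 0.860 in limma). The recovered length of the GYS1 row was 541 bases on an unplaced record, so its level rests on a short gene model. Both unnamed rows described as muscle glycogen synthase were higher, at means of 133 and 174 FPKM against 74.2 FPKM for the GYS1 row. Their log2 differences were 0.062 ± 0.12 and 0.17 ± 0.13 (SE).

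GYG1 was at 160, 128 and 169 FPKM in controls and 193, 129.5 and 131 FPKM with vitamin E. Vitamin E replicate 1 was the highest of the 6 and both others of its group stood near the lowest control. The log2 difference was -0.027 ± 0.19 (SE; 95% interval -0.48 to 0.43; adjusted p = 0.985 in limma). GYG2, under the minimum and so not tested, was at 0.536, 0.488 and 0.431 FPKM in controls and 0.321, 0.330 and 0.275 FPKM with vitamin E. Its groups did not overlap, with vitamin E lower, and each value rested on 12 to 39 reads.

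GBE1, the glycogen branching enzyme, had the smallest p of the genes with a lower mean in vitamin E, and lay at 31.0, 26.6 and 29.2 FPKM in controls and 28.0, 20.2 and 21.1 FPKM with vitamin E. Vitamin E replicates 2 and 3 were below every control, while replicate 1 stood among them. The log2 difference was -0.32 ± 0.15 (SE; 95% interval -0.68 to 0.030), with an unadjusted p of 0.0677 and an adjusted p of 0.571 in limma.

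**Figure D4:**
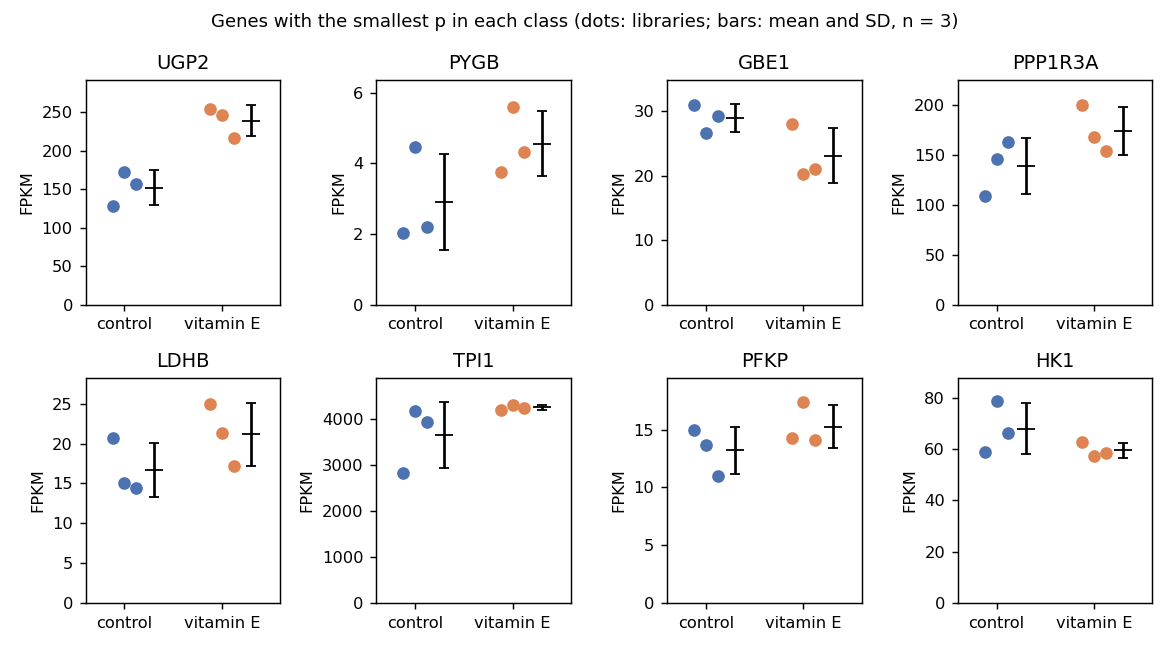
Level in FPKM (vertical axis, from 0) in each library for the 4 glycogen genes (top row) and the 4 glycolytic genes (bottom row) with the smallest unadjusted p. Points are libraries in the order of their replicate numbers, and bars show the mean and SD (n = 3). UGP2 and TPI1 have groups that do not overlap, and the other 6 genes overlap.

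On the side of glycogen breakdown, the gene with the second smallest p of the glycogen class was PYGB, a low gene in this muscle. PYGB was at 2.04, 4.47 and 2.19 FPKM in controls and 3.77, 5.59 and 4.33 FPKM with vitamin E. Control replicate 2 stood among the vitamin E libraries, above the level of replicates 1 and 3. The log2 difference was 0.55 ± 0.25 (SE; 95% interval -0.028 to 1.13), with an unadjusted p of 0.0593 and an adjusted p of 0.566 in limma. Without control replicate 1 the difference of PYGB was 0.40, and without control replicate 2 it was 0.82. PYGL was at 5.67, 7.56 and 4.70 FPKM in controls and 6.27, 7.15 and 5.91 FPKM with vitamin E. Its groups overlapped, with a log2 difference of 0.11 ± 0.17 (SE; 95% interval -0.28 to 0.50; adjusted p = 0.873 in limma). The 4 unnamed rows described as muscle glycogen phosphorylase, which held most of the phosphorylase level, had log2 differences between 0.16 and 0.20. Their groups overlapped, and the SE was between 0.22 and 0.27.

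Phosphorylase kinase activates phosphorylase in response to calcium and hormones. Its catalytic subunit gene PHKG1 was at 408, 580.2 and 523 FPKM in controls and 524, 541 and 579 FPKM with vitamin E. PHKA1, of the regulatory α subunit, was at 207, 236 and 251 FPKM in controls and 214, 244 and 251 FPKM with vitamin E. Both genes were lowest in control replicate 1 and otherwise overlapped. Their log2 differences were 0.14 ± 0.15 for PHKG1 (SE; 95% interval -0.23 to 0.50) and 0.032 ± 0.13 for PHKA1 (SE; 95% interval -0.27 to 0.33), and without control replicate 1 they were -0.0085 and -0.047. PHKB, of the β subunit, was at 292 ± 61.5 and 287 ± 11.7 FPKM, and PHKA2 at 1.73 ± 0.580 and 1.55 ± 0.152 FPKM (SD, n = 3). The log2 difference of PHKB was -0.0012, and -0.16 without control replicate 1.

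The glycogen-targeting subunits of protein phosphatase 1 bring the phosphatase to the particle, where it activates the synthase. PPP1R3A, the form of striated muscle, was at 108, 145 and 163 FPKM in controls and 199.8, 168 and 153 FPKM with vitamin E. Vitamin E replicates 1 and 2 exceeded every control, while replicate 3 did not. The log2 difference was 0.33 ± 0.18 (SE; 95% interval -0.099 to 0.76; adjusted p = 0.631 in limma). Control replicate 1 was lowest, and without it the difference of PPP1R3A was 0.16. Without control replicate 3, the highest control, it was 0.46. PPP1R3C was the most uneven of the tested genes on the log scale, at 15.6, 19.8 and 7.05 FPKM in controls and 5.67, 18.1 and 21.4 FPKM with vitamin E. One library of each group was low, and the 95% interval of the log2 difference ran from -1.21 to 1.23. PPP1R3B was at 2.64 ± 0.729 and 1.86 ± 0.695 FPKM (SD, n = 3), with overlapping groups. Its log2 difference was -0.36, and -0.53 without control replicate 1.

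Entry of glucose was represented by 2 transporters. SLC2A3, the higher of them, was at 31.3, 17.2 and 20.2 FPKM in controls and 18.6, 20.5 and 17.0 FPKM with vitamin E. SLC2A1 was at 9.73, 4.77 and 5.21 FPKM in controls and 5.07, 3.77 and 4.98 FPKM with vitamin E. In both genes control replicate 1 was far above the other 5 libraries, which overlapped. The log2 differences were -0.24 ± 0.21 for SLC2A3 (SE; 95% interval -0.74 to 0.26; adjusted p = 0.773 in limma) and -0.38 ± 0.25 for SLC2A1 (SE; 95% interval -0.96 to 0.19; adjusted p = 0.682 in limma). Without control replicate 1 they were -0.0017 for SLC2A3 and -0.10 for SLC2A1. The unnamed rows described as glucose transporters 1 and 3 averaged 9.91 and 19.2 FPKM. Their log2 differences were -0.30 ± 0.36 and -0.54 ± 0.33 (SE), with overlapping groups and control replicate 1 highest in both.

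HK1 was at 59.0, 78.7 and 66.2 FPKM in controls and 63.0, 57.3 and 58.6 FPKM with vitamin E, so that its groups overlapped through control replicate 1. The log2 difference was -0.18 ± 0.14 (SE; 95% interval -0.49 to 0.14; adjusted p = 0.732 in limma), and without that library it was -0.27. HK2, the insulin-responsive hexokinase of mammalian muscle, was at 25.6 FPKM in control replicate 1 and between 10.9 and 13.0 FPKM in the other 5 libraries. Its log2 difference of -0.33 turned to 0.039 without that library. GPI, which turns glucose 6-phosphate into fructose 6-phosphate, was at 2131 ± 282 and 2149 ± 232 FPKM (SD, n = 3).

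PFKM was at 1635, 2225 and 1994 FPKM in controls and 1796, 2187 and 2287 FPKM with vitamin E. The lowest library of each group was its replicate 1, and the groups overlapped, with a log2 difference of 0.10 ± 0.16 (SE; 95% interval -0.28 to 0.48; adjusted p = 0.878 in limma), which was -0.019 without control replicate 1. PFKP, the platelet form, was at 14.98, 13.7 and 10.99 FPKM in controls and 14.3, 17.4 and 14.1 FPKM with vitamin E, with a log2 difference of 0.20 ± 0.15 (SE; 95% interval -0.15 to 0.55; adjusted p = 0.728 in limma). PFKL, the liver form, was lower still, at 2.64 ± 0.285 and 2.96 ± 0.523 FPKM (SD, n = 3).

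The opposing enzyme, fructose bisphosphatase, returns fructose 1,6-bisphosphate to fructose 6-phosphate. FBP2 lies on chromosome Z at positions 41422556 to 41443109 and FBP1 at 41447658 to 41457316, on the same strand. FBP2 was at 799, 725 and 948 FPKM in controls and 959, 669 and 833 FPKM with vitamin E. Both the highest and the lowest of these values were in the vitamin E group, and the log2 difference was -0.013 ± 0.17 (SE; 95% interval -0.42 to 0.39; adjusted p = 0.994 in limma). FBP1 was at 7.84, 5.55 and 4.63 FPKM in controls and 5.53, 6.07 and 4.46 FPKM with vitamin E. Its groups overlapped and control replicate 1 was highest, with a log2 difference of -0.12 ± 0.19 (SE; 95% interval -0.57 to 0.32; adjusted p = 0.874 in limma), which was 0.056 without that library.

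ALDOC, an aldolase, was at 45.2, 32.1 and 28.3 FPKM in controls and 40.7, 41.5 and 31.4 FPKM with vitamin E. Control replicate 1 was highest and the groups overlapped, with a log2 difference of 0.12 ± 0.20 (SE; 95% interval -0.35 to 0.59; adjusted p = 0.886 in limma), which was 0.31 without that library. The unnamed rows described as aldolase A had log2 differences of -0.028 ± 0.15 and -0.11 ± 0.15 (SE), with overlapping groups. TPI1, triose phosphate isomerase, was at 2822, 4176 and 3932 FPKM in controls and 4201, 4305 and 4236 FPKM with vitamin E. The vitamin E libraries lay close together and just above control replicate 2, while control replicate 1 was far below the rest. The log2 difference of TPI1 was 0.24 ± 0.17 (SE; 95% interval -0.15 to 0.64; adjusted p = 0.704 in limma), and without control replicate 1 it was 0.068. TPI1 lies on chromosome 1 at positions 77274758 to 77277757, in the same stretch as GAPDH and as ENO2, at 77287666 to 77296901.

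GAPDH was at 40677, 57137 and 51000.3 FPKM in controls and 50259, 59350 and 56727 FPKM with vitamin E. The groups overlapped and control replicate 1 was lowest, with a log2 difference of 0.17 ± 0.16 (SE; 95% interval -0.21 to 0.55; adjusted p = 0.789 in limma), and 0.035 without that library. PGK1, phosphoglycerate kinase, makes ATP in the next step and was at 4253 ± 536 and 4532 ± 398 FPKM (SD, n = 3). PGAM1, a phosphoglycerate mutase, was at 3596, 4939 and 4312 FPKM in controls and 3452, 4492 and 4667 FPKM with vitamin E. Replicate 1 was the lowest of each group, and the log2 difference was -0.027 ± 0.18 (SE; 95% interval -0.44 to 0.39; adjusted p = 0.982 in limma), or -0.15 without control replicate 1.

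ENO1, the widely expressed enolase, was at 622, 358 and 477 FPKM in controls and 440.1, 443 and 459.6 FPKM with vitamin E. The controls spread on both sides of the narrow vitamin E group. The log2 difference was -0.082 ± 0.20 (SE; 95% interval -0.55 to 0.38; adjusted p = 0.931 in limma) and was 0.11 without control replicate 1. The unnamed row described as beta-enolase, with most of the enolase level, had a log2 difference of 0.21 ± 0.19 (SE), with overlapping groups. PKM, which makes pyruvate and ATP, was at 4188, 5534 and 4862 FPKM in controls and 4390.4, 5806 and 5813 FPKM with vitamin E. Replicate 1 was again the lowest of each group, and the log2 difference was 0.13 ± 0.17 (SE; 95% interval -0.27 to 0.53; adjusted p = 0.850 in limma). Without control replicate 1 it was 0.029.

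LDHA was at 13780, 15336 and 17850 FPKM in controls and 23688, 16416 and 15653 FPKM with vitamin E. Vitamin E replicate 1 stood far above the others, which overlapped, and the log2 difference was 0.23 ± 0.19 (SE; 95% interval -0.23 to 0.69; adjusted p = 0.761 in limma). Without vitamin E replicate 1 the difference of LDHA was 0.042, without control replicate 1 it was 0.14, and with quantile normalization it was 0.46. LDHA in that library held 4.75% of summed FPKM, against 2.84% to 3.62% in the other 5. LDHB was at 20.7, 15.02 and 14.4 FPKM in controls and 24.97, 21.4 and 17.1 FPKM with vitamin E. Vitamin E replicates 1 and 2 lay above every control and replicate 3 below control replicate 1. The log2 difference of 0.33 ± 0.19 (SE; 95% interval -0.11 to 0.76) had the smallest p of the glycolytic class, 0.124 unadjusted and 0.644 adjusted in limma, and was 0.48 without control replicate 1.

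Read across genes, control replicate 1 differed with the level of the gene. Control replicate 1 was the lowest library for 8 of the 9 listed genes with a mean of 1000 FPKM or more, and for 29.8% of all 47 genes at that level. It was lowest for 5 of 8 listed genes between 100 and 1000 FPKM, against 25.3% of all 430 genes there. Between 10 and 100 FPKM it was the highest library for 4 of 9 listed genes, HK2, SLC2A3, ALDOC and GBE1, against 26.3% of all 3797 genes there. Vitamin E replicate 1 was highest for 7 of the 33 listed genes (21.2%), near its share of 19.8% over all tested genes. It was highest for LDHA, LDHB, UGP2, PPP1R3A, GYG1, PGK1 and FBP2, and lowest for PGAM1 and PPP1R3C.

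**Figure D5:**
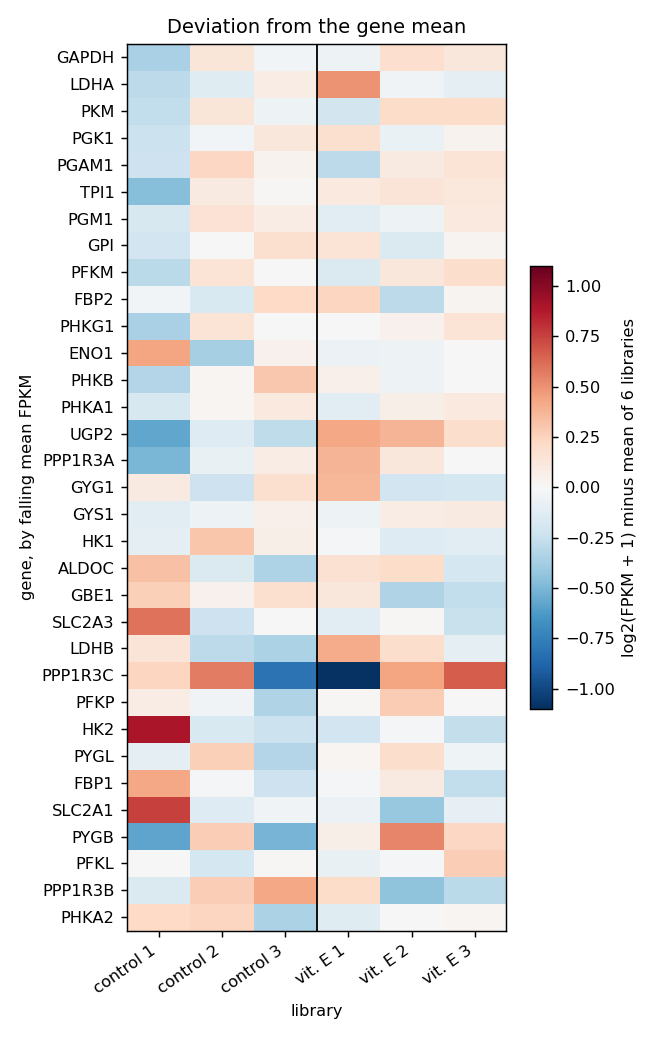
Deviation of log2(FPKM + 1) from the gene's mean over the 6 libraries (colour scale, log2 units), for the 33 tested genes in order of falling mean level, with controls left of the line and vitamin E right of it. Control replicate 1 is blue for most of the highest genes and red for several lower ones. UGP2 is the only gene whose controls are all blue and whose vitamin E libraries are all red.

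The median difference between the diets was small in both the glycolytic and the glycogen class, while single genes differed by up to 0.66. The median log2 difference was 0.11 over the 15 glycolytic genes, with a range from -0.33 to 0.33 and 11 above 0, and it was 0.039 without control replicate 1. Over the 14 glycogen genes the median was 0.022, with a range from -0.36 to 0.66 and 8 above 0, and without 1 library it ranged from 0.016 to 0.113. The highest of these, without vitamin E replicate 1, was above the glycolytic median in the same fit, 0.109. Other scalings of the libraries gave 0.080 to 0.11 for the glycolytic median and -0.015 to 0.017 for the glycogen median, whose sign thus changed with the scaling. All 11320 tested genes had a median of 0.019, and 54.2% of them were above 0. Under the same scalings that median ran from -0.0090 to 0.015, so its sign changed as well. The glycogen range was the wider, with UGP2 and PYGB at its upper end.

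The level of each class per library was taken as the mean over its genes of the deviation in log2(FPKM + 1) from the gene's mean. The glycolytic level was -0.039, -0.022 and -0.053 in controls and 0.030, 0.061 and 0.022 with vitamin E. All 3 vitamin E values were above the controls, by an average of 0.075. The mean over all tested genes was 0.030, 0.0039 and -0.072 in controls and 0.020, 0.041 and -0.023 with vitamin E. It differed by 0.025 on the same measure, and the class levels were not adjusted for these library means. Taken as the median over its genes, the glycolytic level was -0.21, -0.032 and 0.0095 in controls and -0.0090, 0.095 and 0.027 with vitamin E, so that the groups overlapped. The glycogen level was -0.16, 0.11 and -0.063 in controls and 0.0090, 0.054 and 0.054 with vitamin E, with an average difference of 0.078 and with control replicate 2 above all others. The glycolytic minus glycogen level was 0.12, -0.13 and 0.0099 in controls and 0.021, 0.0071 and -0.032 with vitamin E. Its average difference between the groups, -0.0025, was small beside the spread of the controls, 0.13 (SD, n = 3). By median over the genes this level was -0.040, -0.13 and -0.057 in controls and -0.051, 0.038 and -0.035 with vitamin E. The groups overlapped, and the average difference of 0.060 was not small beside the control spread of 0.049 (SD, n = 3). The glycogen level by median differed by 0.054.

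Genes around the 2 pathways were described from 9 lists of 99 names, of which 88 were found and 77 tested. Of the 77, 0 were called in limma over all genes, 3 were higher with vitamin E at an unadjusted p under 0.05 (3.90%) and 6 were lower (7.79%), against 5.97% and 3.14% of all tested genes. The largest group of these was in the list of glycogen handling and its regulators, with 1 higher and 4 lower of 20 tested. The median log2 difference of that list was -0.12. Its smallest p belonged to PPP1CC, the 1 gene counted as higher, against the direction of the 4 lower genes. PPP1CC is a catalytic subunit of protein phosphatase 1, the enzyme that the PPP1R3 subunits bring to glycogen. PPP1CC was at 53.7, 43.2 and 48.4 FPKM in controls and 78.0, 78.0 and 61.7 FPKM with vitamin E. Its groups did not overlap, and the log2 difference was 0.57 ± 0.14 (SE; unadjusted p = 0.00507, adjusted p = 0.351 in limma).

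Among the lactate and pyruvate carriers, 0 of 7 tested genes were higher and 1 was lower at an unadjusted p under 0.05. That gene was SLC16A3, which encodes the lactate exporter MCT4, at 6.60, 6.39 and 7.18 FPKM in controls and 5.60, 5.02 and 4.31 FPKM with vitamin E. Its groups did not overlap, and the log2 difference was -0.37 ± 0.12 (SE; adjusted p = 0.442 in limma). SLC2A5, the fructose transporter GLUT5, was at 0.946, 1.56 and 1.02 FPKM in controls and 2.00, 2.22 and 2.59 FPKM with vitamin E, on 62 to 148 reads. Its groups did not overlap either, and they differed by 0.60 ± 0.16 on the log2 scale (SE; adjusted p = 0.360 in limma).

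In the list of other glycolytic and hexose enzymes, 1 of 7 tested genes was lower at an unadjusted p under 0.05, and this was MINPP1, a phosphatase of inositol polyphosphates and 2,3-bisphosphoglycerate. Its log2 difference was -0.46 ± 0.16 (SE; adjusted p = 0.446 in limma). Of the gluconeogenic enzymes outside the listed genes, 1 of 4 was higher, PCK2, the mitochondrial PEP carboxykinase, at 0.30 ± 0.10 (SE; adjusted p = 0.466 in limma). No gene of the pentose phosphate, NADH shuttle, hexosamine or transcription factor lists was at an unadjusted p under 0.05. The smallest p in these lists belonged to TKT (transketolase, log2 difference 0.31), GPD2 (mitochondrial glycerol 3-phosphate dehydrogenase, -0.20), GFPT1 (the entry enzyme of the hexosamine pathway, -0.26) and MEF2C (a muscle transcription factor, -0.33).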

How the data were processed

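Expression was measured in 6 RNA-seq libraries, 3 control and 3 vitamin E, grouped by their source names. The deposited values are FPKM per gene, in 1 table covering 20943 genes. TopHat2 2.0.12 is named in the submitters' processing notes, while counter, annotation and genome build were not given in the sources used here. Chromosome positions come from the deposited table, and 37 of its sequence records were given chromosome names by the gene symbols on them, with at least 94.4% of symbols on 1 chromosome of a reference gene table. No sequences were used here.

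The low FPKM steps gave back the read total of each library and the reads of each gene. The gene reads were whole within 0.002 for 100% of tested genes. At 1 FPKM a transcript of 1 kb rests on 14.2 to 25.5 reads. Replicates differed by more than sampling noise (chi-square of 21.6 to 111 per degree of freedom).

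Genes averaging 1 FPKM or more were tested, two-sided, with limma 3.58.1 (R 4.3.3) and its intensity trend. Values entered as log2(FPKM + 1), a scale that understates the change of low genes. The p-values of all 11320 genes were adjusted by Benjamini-Hochberg, with 0.05 as threshold. Exact permutation tests were not used, since 3 against 3 libraries cannot give a p under 0.1. The members and lists were chosen with earlier results of these data known, and no p was adjusted over a list. Full values are given for the 4 genes of smallest p in the glycolytic and in the glycogen class, the highest isozyme of each family, the transporters and the fructose bisphosphatases, and the gene of smallest p is named for each neighbouring list. The fit was also run on simulated data, and the share of changes that it recovers is not reported here. Alternatives covered pseudocounts, filters, scaling, model options, blocks and each library left out. Chosen after seeing the data were voom on the recovered reads and the rows matched by description. Matplotlib 3.10.9 drew the figures.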

Additional observations from a re-analysis of the deposited data

How the results depend on the processing

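No listed gene was called under any of the 21 other settings, and UGP2 was at an unadjusted p under 0.05 in each of them. The listed genes at an unadjusted p under 0.05 were 2 with library quality weights, 2 with voom on recovered reads, 2 with no filter on low values, and between 1 and 3 with a library left out, against 1 as reported. PYGB joined UGP2 under the weights, under voom and without control replicate 2, and GYG2 did with no filter. LDHB and PPP1R3B joined it without control replicate 1, and GBE1 and PPP1R3B without vitamin E replicate 1. Deviations of the same-numbered libraries correlated at -0.13, 0.15 and 0.012, and those of differently numbered libraries at -0.17 to 0.14. These values cannot decide whether samples were paired, since the deviations within a group of 3 constrain each other. The replicate block gave 3 listed genes (LDHB, PYGB and UGP2). Over all genes, 2 were called with a minimum of 5 FPKM and 2 with voom. Genes at an unadjusted p under 0.05 were 679 with that minimum and between 690 and 1557 with a library left out, the highest without control replicate 2, against 1031. The glycolytic class level by median over its genes differed by 0.11, against 0.075 by mean, and by median the groups overlapped. The glycolytic minus glycogen level differed by 0.060 by median, against -0.0025 by mean. The glycolytic median was 0.039 without control replicate 1, and the glycogen median was 0.113 without vitamin E replicate 1.

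Differences of 17 listed genes changed sign under at least 1 setting. HK2 did so from -0.33, PHKG1 from 0.14, FBP1 from -0.12, ALDOC from 0.12, PYGL from 0.11 and PFKM from 0.10. The others lay nearer 0 than these. GPI was -0.017 with TMM-type scaling, -0.019 with equal summed FPKM, -0.043 with quality weights, -0.016 with median-of-ratios scaling and -0.0018 with quantile normalization. PPP1R3C was -0.014, -0.018, -0.013 and -0.0087 under these scalings and -0.0022 with voom. PHKA1 was -0.0020 with equal summed FPKM and -0.021 with quantile normalization, under which PGK1 was -0.00061 and PGAM1 0.010. With a library left out, the range was -0.53 to 0.039 for HK2, -0.085 to 0.11 for GPI, -0.019 to 0.21 for PFKM, -0.28 to 0.11 for ENO1, -0.22 to 0.070 for GYG1 and -0.047 to 0.09997 for PHKA1. It was -0.27 to 0.025 for PHKA2, -0.0085 to 0.25 for PHKG1, -0.27 to 0.056 for FBP1, -0.15 to 0.11 for PGAM1, -0.16 to 0.15 for PHKB and -0.14 to 0.028 for PGM1. It was -0.020 to 0.31 for ALDOC, -0.025 to 0.27 for PYGL, -0.39 to 0.56 for PPP1R3C and -0.13 to 0.13 for FBP2. LDHA, whose sign held, was 0.042 without vitamin E replicate 1 and 0.46 with quantile normalization. The cause was not tested. Leaving mitochondrially encoded genes out of the sum was not run, because 0 such rows were recognised. The scalings put the median of all tested genes between -0.0090 and 0.015, against 0.019 as reported.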
